A study of Arabidopsis thaliana with 4 samples.

Results

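The 6 genes of the Arabidopsis plastid genome that encode subunits of the cytochrome b6f complex, petA, petB, petD, petG, petL and petN, were followed in seedlings labelled wild-type (WT) and in seedlings labelled as over-expressing a glutathione S-transferase. Each was read through the probe set that the platform annotation names for that gene alone. All 6 had such a probe set and none had more than 1. They are 6 of 69 plastid genes, and of 13350 genes in all, that could be read in this way. RNA came from whole seedlings of ecotype Columbia, 14 days old and grown without stress on MS medium, and was measured on 4 Affymetrix arrays, 2 for each genotype. The transgenic plants, called 35S:OsGSTU4 here, carry the rice tau class gene OsGSTU4 behind the constitutive CaMV 35S promoter. According to the paper they came from a single homozygous line, while the labels name no line. In the series' design text 1 sentence speaks of GRX over-expression, whereas title and labels name GST.

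The cytochrome b6f complex sits in the thylakoid membrane between the photosystems. It takes electrons from plastoquinol, hands them to plastocyanin and moves protons into the thylakoid lumen, which feeds the ATP synthase. Its large subunits are cytochrome f (petA), cytochrome b6 (petB), subunit IV (petD) and the Rieske iron-sulfur protein, which is encoded in the nucleus by PETC. Around them lie very small membrane-spanning subunits, of which petG, petL and petN are plastid genes and PETM is nuclear. In tobacco, petG and petN are needed for the complex to accumulate, whereas petL is dispensable and helps to keep the dimer stable. Plastid genes are mostly transcribed together with their neighbours into long RNAs that are then processed.

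The values were the deposited log2 signals, and every difference is given as 35S:OsGSTU4 minus WT on that scale, so that 1 is a fold of 2. The sign so obtained ran opposite to the direction printed in the study at 63 of the 63 probe sets it lists, none of which reads a cytochrome b6f gene, and the groups are therefore named by their labels. The study's real-time PCR, which is not analysed here, measured genes that are on that list. The paper reports them as higher in the transgenic line without stress, which is the study's direction and opposite to the sign here. Which direction holds for the arrays was not tested. Array medians were 7.29 and 7.37 for WT and 7.41 and 7.42 for 35S:OsGSTU4. Replicate 1 of 35S:OsGSTU4 stood apart in the control probe set for 25S ribosomal RNA, at 5.96, with the other 3 arrays between 12.54 and 12.76, so differences are also given without that array. For actin, the control probe set at the 3′ end exceeded that at the 5′ end, a gap that widens as labelled RNA gets shorter. It did so by 3.48 and 3.53 for WT and by 4.07 and 3.76 for 35S:OsGSTU4. The other control pairs set the genotypes apart less clearly. Ubiquitin overlapped, with 1.27 and 1.76 in WT beside 1.84 and 1.59 in 35S:OsGSTU4. GAPDH had nearly equal values on WT replicates 1 and 2 (1.01, 0.96) and 35S:OsGSTU4 replicate 1 (1.05). Only 35S:OsGSTU4 replicate 2 stood out there, at 1.36. The part of RNA length in the differences was not tested. The labelling kit primes from poly(A), of which plastid RNAs carry little in a stable form, and what that does to these values was not tested. Of 7 listed marker genes of green tissue, 2 could be read. RCA, the Rubisco activase gene, lay between 14.40 and 14.87, with a difference of 0.16 (standard error 0.27). The antenna gene LHCB4.2 had 10.76 and 11.55 in WT and 11.73 and 12.33 in 35S:OsGSTU4, so its groups did not overlap. Its difference of 0.87 (0.44) stands beside those of the cytochrome b6f genes, and its part in them was not tested. None of the 13 listed markers of root, seed, flower and pollen could be read. In whole seedlings, more green cells and more RNA per cell cannot be told apart.

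All 6 cytochrome b6f genes had a higher mean in the arrays labelled 35S:OsGSTU4. So had all 63 other plastid genes that could be read, and 12272 of the 22746 probe sets tested. Among the 6, the larger differences were those of the small subunits. The median difference of the 6 genes was 1.74, where the median of all 22746 probe sets tested was 0.04. At 5 of the 6, all but petD, both 35S:OsGSTU4 arrays were above both WT arrays, an arrangement found at 21.1% of all probe sets. Past the thresholds of the study, a fold of at least 2 with P of at most 0.05, were petL and petN, so 2 of 6 genes were higher and 0 lower, beside 2.38% of all probe sets higher and 2.34% lower. These calls were not stable: 0 of 6 genes passed with the methods' t-test, and 1 of 6 with the replicate number as a block, with values under 5 set to 5, or whichever array was left out. P came from limma, a linear model that moderates the variance of each probe set by those of all others, and was not adjusted for the study's thresholds. With an intensity trend in the variance 3 of 6 genes passed, and at a fold of at least 1.5 also 3 of 6. The methods' t-test is Student's t-test, which the paper's methods name for its plant assays and not for its arrays. After Benjamini-Hochberg adjustment over all probe sets none of the 6 passed 0.05, as was the case for 0% of all probe sets with limma, while 1317 were under 0.05 before adjustment. With the methods' t-test 1381 were under 0.05 before adjustment and 0 after it, and limma with an intensity trend called 2 probe sets, neither of them a cytochrome b6f gene. With 2 arrays against 2, an exact two-sided permutation test of a single gene cannot go below p = 0.333. The labels count 2 biological replicates a genotype without saying whether they were separate sowings, and the paper's methods count more than were deposited, so P measures the spread between these arrays alone.

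**Figure D1:**
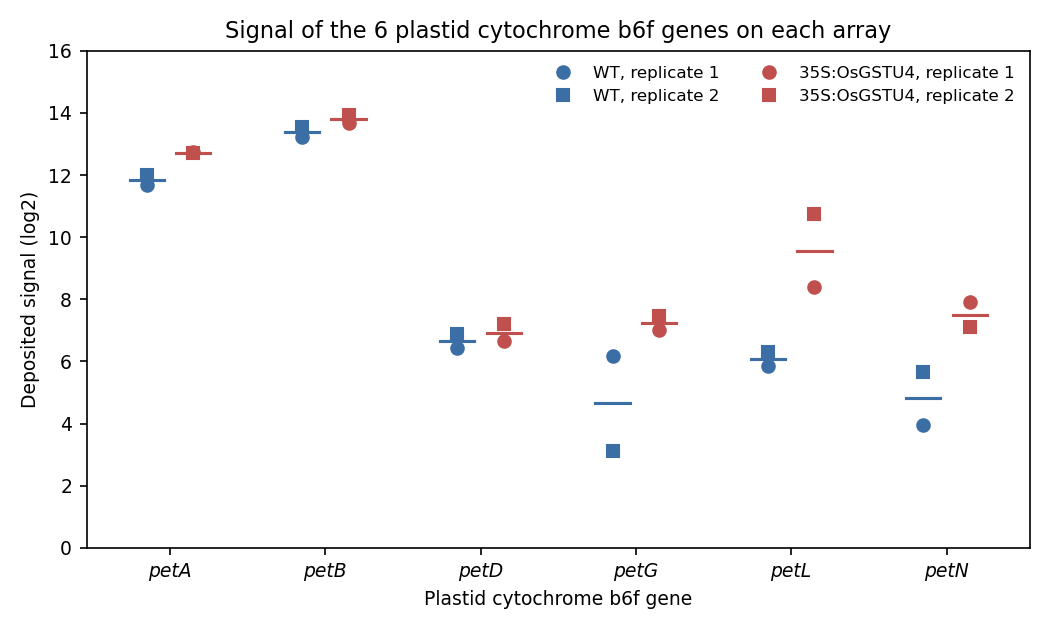
Deposited log2 signal of each plastid cytochrome b6f gene (x axis) on the 4 arrays; blue marks WT, red marks 35S:OsGSTU4, circles are replicate 1, squares are replicate 2 and short lines are group means. The groups overlap at petD only, and petL, petG and petN are the genes whose groups lie farthest apart.

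The gene petL, whose product is a small subunit of the complex, had the largest difference of the 69 plastid genes. Its signal was 5.84 and 6.30 in WT replicates 1 and 2, and 8.38 and 10.76 in 35S:OsGSTU4 replicates 1 and 2. The WT arrays lay close together, and the 35S:OsGSTU4 arrays were both higher but 2.38 apart from each other. The difference was 3.50 (standard error 0.95, 95% confidence interval 0.68 to 6.31), a fold of 11.3 (limma adjusted p = 0.780). Replicate 2 of 35S:OsGSTU4 carried much of it, since the difference was 2.31 without that array and 4.68 without replicate 1. It passed the thresholds in both of these fits. It did not pass without WT replicate 1 (3.26) or WT replicate 2 (3.73), with values under 5 set to 5, or with the methods' t-test.

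The gene petN encodes another of the small subunits. Its signal was 3.96 and 5.67 in WT replicates 1 and 2, and 7.90 and 7.11 in 35S:OsGSTU4 replicates 1 and 2. The WT values were well below the array medians and the others near them, and the lower 35S:OsGSTU4 array exceeded the higher WT array by 1.44. The difference was 2.69 (standard error 0.75, interval 0.46 to 4.92), a fold of 6.46 (limma adjusted p = 0.798), the third largest among plastid genes. The files do not say whether such dim values are above background, and with values under 5 set to 5 the difference was 2.17. It was 2.29 without replicate 1 of 35S:OsGSTU4 and 1.84 without WT replicate 1, the dimmest of its values, and petN did not pass the thresholds in either case. With the replicate number as a block the difference was the same 2.69 and did not pass them either (adjusted p = 0.833 from limma).

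The gene petG encodes a small subunit that tobacco needs for assembly of the complex. Its signal was 6.17 and 3.13 in WT replicates 1 and 2, and 7.02 and 7.47 in 35S:OsGSTU4 replicates 1 and 2. Here the WT arrays disagreed, by 3.05, and the WT array with the higher value lay only 0.85 below the nearest 35S:OsGSTU4 array. The difference of 2.60 (standard error 1.19, interval -0.95 to 6.14) did not pass, its P being above the limit (limma adjusted p = 0.895). It was 1.07 without WT replicate 2 and 4.12 without WT replicate 1, where it passed the thresholds (limma adjusted p = 0.454), and it was 2.82 without replicate 1 of 35S:OsGSTU4. With values under 5 set to 5 it was 1.66.

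The larger subunits differed less. The petA gene, for cytochrome f, the subunit that passes electrons to plastocyanin, had signals of 11.67 and 12.01 in WT and 12.75 and 12.70 in 35S:OsGSTU4. The groups did not overlap and the 35S:OsGSTU4 arrays were only 0.05 apart. The difference of 0.88 (standard error 0.25, interval 0.13 to 1.63) was a fold of 1.84 (limma adjusted p = 0.814). It met the limit on unadjusted P and missed the fold of 2. Without replicate 1 of 35S:OsGSTU4 it was 0.86, and without replicate 2 it was 0.90. The limit on P was no longer met whichever of the 4 arrays was left out, nor with the replicate number as a block.

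The petB gene, for cytochrome b6, which binds the haems that pass electrons across the membrane, was the brightest of the 6. Its signals were 13.22 and 13.56 in WT and 13.66 and 13.94 in 35S:OsGSTU4. The groups were separated by 0.10, less than the 0.34 between the WT arrays. The difference was 0.41 (standard error 0.27, interval -0.40 to 1.22, adjusted p = 0.895 from limma), and 0.55 without replicate 1 of 35S:OsGSTU4.

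The petD gene, for subunit IV, which helps to form the site where plastoquinol is oxidized, was the 1 gene of the complex whose groups overlapped. Its signals were 6.44 and 6.87 in WT and 6.64 and 7.20 in 35S:OsGSTU4. The difference was 0.27 (standard error 0.35, interval -0.76 to 1.29, adjusted p = 0.913 from limma). It turned to -0.01 without replicate 2 of 35S:OsGSTU4 and was 0.55 without replicate 1. The interval holds a fold of 2 in favour of 35S:OsGSTU4 and none in favour of WT.

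**Figure D2:**
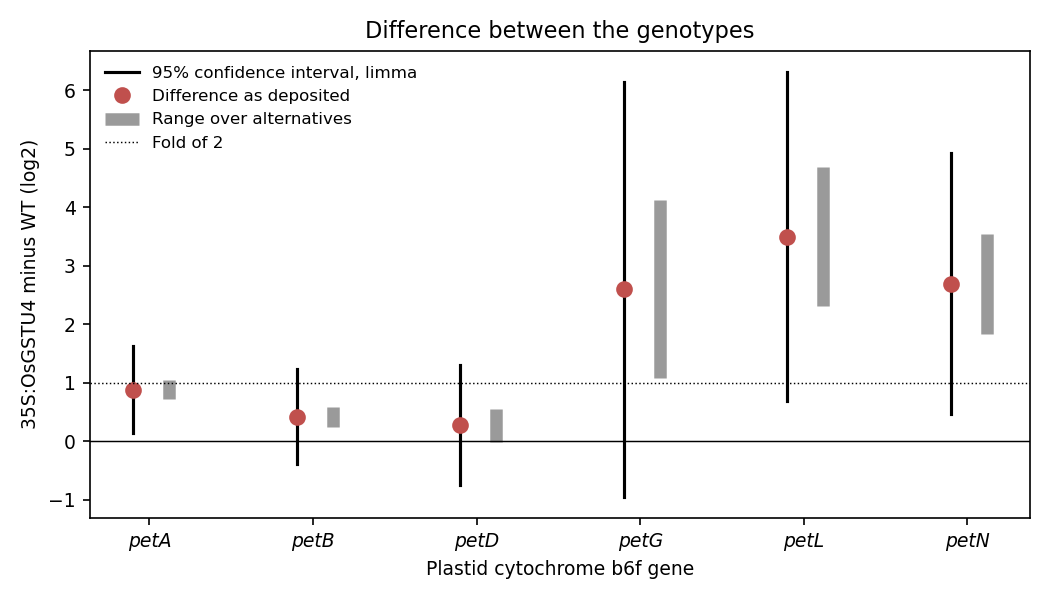
Difference of each plastid cytochrome b6f gene (35S:OsGSTU4 minus WT, log2, y axis); red points are the differences as deposited, black lines their 95% confidence intervals from limma and grey bars the range over the alternative settings. The intervals of petA, petL and petN lie above 0, those of petB, petD and petG include 0, and only the grey bar of petD reaches below 0.

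The 6 genes did not share 1 pattern between replicates. From WT replicate 1 to replicate 2 the signal differed by 0.34 at both petA and petB, 0.43 at petD, 0.46 at petL and 1.71 at petN, and by -3.05 at petG. Between the 35S:OsGSTU4 replicates, replicate 2 was higher by 2.38 at petL and lower by 0.80 at petN, so that the small-subunit genes with the largest differences were highest on different arrays. Signal and difference went together only in part. The mean signals of petB and petA were above those of 99.4% and 97.3% of all probe sets, and both had small differences. The petD probe set, brighter than 43.2% of all probe sets, had the smallest difference, whereas those of petN and petG, brighter than 36.8% and 34.8%, had large ones, and that of petL was brighter than 56.2%. The order of the differences was petL, petN, petG, petA, petB and petD. The intervals of every pair of the 6 genes overlapped, also those of petL and petD, and whether the genes differ from each other was not tested.

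The direction was the same under each scaling of the arrays tried. With each array centred on its median, centred on its nuclear genes or quantile normalized, 6 of 6 genes again had a higher mean in 35S:OsGSTU4 and 5 of 6 had groups that did not overlap, with median differences of 1.65, 1.67 and 1.79. The array medians lay between 7.29 and 7.42, so centring could move these differences only a little. The share of all probe sets with groups that did not overlap was not taken under these scalings.

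Other plastid genes were higher in the same arrays, so the cytochrome b6f genes were set beside them. Some of their probe sets are on the study's list, where they are printed as lower in the transgenic line. The probe sets read here as psbC and psbZ are examples, with differences of 2.50 and 2.07. The study's list names a mitochondrial ribosomal protein gene at the probe set read here as psbZ. Its gene names and those used here thus do not always match. The other 63 plastid genes that could be read had a median difference of 0.93, with 18 past the thresholds as higher, 0 as lower, and 42 with groups that did not overlap. Against that median petL lay 2.57 higher, petN 1.76 and petG 1.67, while petA lay 0.05 lower, petB 0.52 and petD 0.66. Among the 69 genes the cytochrome b6f genes held ranks 1, 3, 5, 36, 51 and 56. Between them, ndhH was at rank 2 with 3.45 and ndhE at rank 4 with 2.65, both of the NADH dehydrogenase-like complex. Their mean signals were 6.49 and 7.30, beside 7.82, 6.16 and 5.95 at petL, petN and petG. The genes of photosystem II had a median of 1.13 over 15 genes, with 4 past the thresholds. Those of the NADH dehydrogenase-like complex had 0.94 over 10 genes, with 2 past them, and those of the ATP synthase 0.84 over 6 genes, with 2 past them. These medians describe genes read on the same 4 arrays, and whether the complexes differ was not tested.

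**Figure D3:**
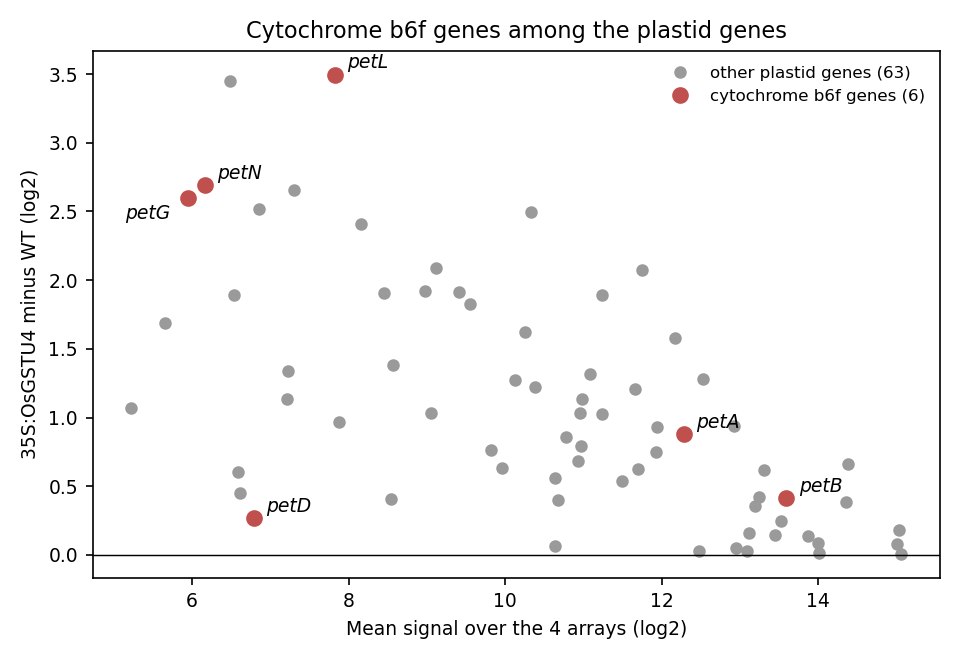
Difference (35S:OsGSTU4 minus WT, log2, y axis) against mean log2 signal over the 4 arrays (x axis) for 69 plastid genes; red points are the cytochrome b6f genes and grey points the other 63. The small-subunit genes petL, petN and petG are near the top at low to middling signal, petA and petB are at the bright end, and petD is near 0 at a signal of 6.79.

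On the plastid map the 6 genes lie in 4 stretches, and 11 other genes of these stretches were listed as their neighbours. All 11 had a higher mean in 35S:OsGSTU4, as had every plastid gene that could be read. Past the thresholds as higher were 18 of the 63 plastid genes outside the complex, these 11 among them, and 2.38% of all probe sets. Groups did not overlap at 42 of those 63, with both 35S:OsGSTU4 arrays higher, and at 21.1% of all probe sets. The 11 neighbours had a median difference of 1.58, with 5 past the thresholds, and 9 had groups that did not overlap. The count past the thresholds was 6 without replicate 1 of 35S:OsGSTU4, 1 without its replicate 2, 2 without WT replicate 2 and 0 without WT replicate 1. The methods' t-test took 0, and 2 passed when values under 5 were set to 5. Other settings gave more: 8 with the intensity trend, 7 among probe sets above the median mean signal, and 6 with quantile normalization or the replicate block. The list leaves out the protein genes at the outer side of the members, which were added after their values were seen and had differences below the median of the list. They are rpoA after petD, with 0.15, psbJ after petA, with 0.93, psbE before petL, with 1.21, and rpoB before petN, with 1.07. None of these passed the thresholds.

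The stretch that ends with petB and petD begins with genes of photosystem II, and these differed by more than the cytochrome b6f genes beside them. The psbB gene, for the CP47 antenna protein, had signals of 6.60 and 7.31 in WT and 8.72 and 10.01 in 35S:OsGSTU4, a difference of 2.41 (standard error 0.60). For psbT, a small subunit, the difference of 2.52 (1.33) came largely from replicate 2 of 35S:OsGSTU4, at 9.82 against 6.41 in replicate 1. Next to petB, psbH, for a small phosphoprotein, had 10.30 and 10.56 in WT and 11.31 and 12.18 in 35S:OsGSTU4, a difference of 1.32 (0.41). The psbN gene, which is transcribed from the opposite strand, had 1.13 (0.61). Only psbB and psbH of these passed the thresholds. Differences thus ranged from 2.52 to 0.27 within this stretch.

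Upstream of petA lie ycf4, for an assembly factor of photosystem I, and cemA, for an envelope membrane protein. The ycf4 signals were 7.54 and 7.46 in WT and 9.99 and 8.82 in 35S:OsGSTU4, a difference of 1.90 (0.50), and cemA had 1.62 (0.53). Both passed the thresholds, and psaI, a photosystem I subunit gene at the start of this stretch, had 0.75 (0.24) and did not, like petA at its end.

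Beside petL and petG, the photosystem I gene psaJ had signals of 9.59 and 11.00 in WT and 10.92 and 13.46 in 35S:OsGSTU4, so its groups overlapped and its highest value was again on replicate 2 of 35S:OsGSTU4. The ribosomal protein genes rpl33 and rps18 followed with differences of 1.58 (0.49) and 1.03 (0.35), and rpl33 passed the thresholds. The gene next to petN, psbM, had 0.66 (0.62), with groups that overlapped and a signal between 13.54 and 15.28.

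**Figure D4:**
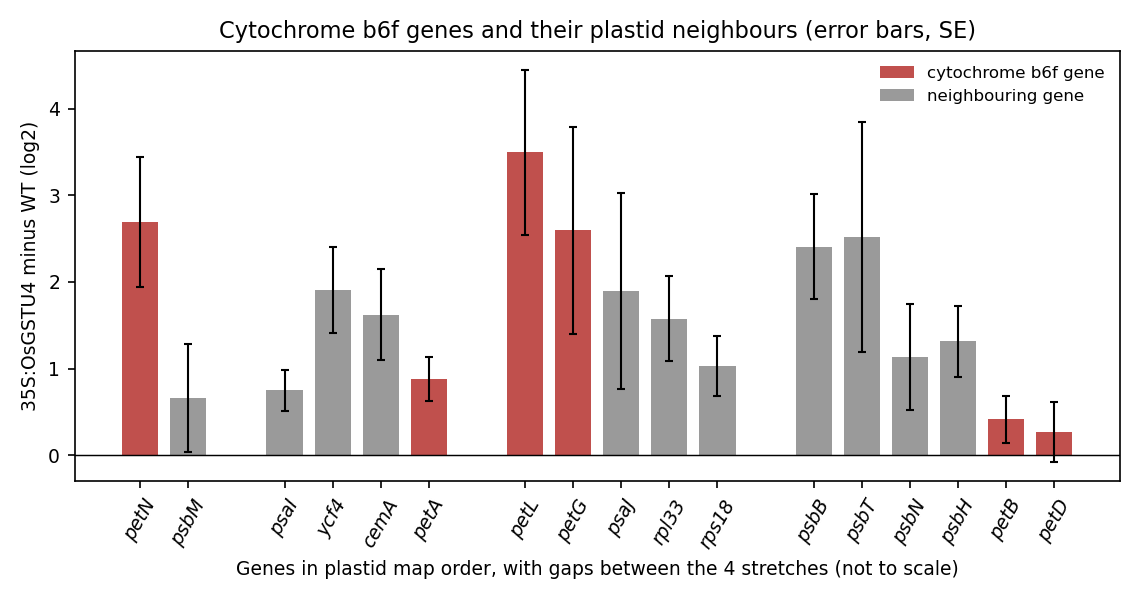
Difference (35S:OsGSTU4 minus WT, log2, bars) with standard error for the cytochrome b6f genes (red) and the 11 listed plastid neighbours (grey), in the order of the plastid map. In the stretch from psbB to petD the tallest bars are those of psbB and psbT and the shortest those of petB and petD, and petL and petN carry the tallest bars in theirs.

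Nuclear genes for the same complex and its surroundings could be read only in small part. Of 22 listed nuclear genes, for subunits, electron partners and assembly or RNA factors, 6 could be read. Among these 4 had a higher and 2 a lower mean in 35S:OsGSTU4, with a median difference of 0.13 and none past the thresholds. PETM, the 1 nuclear subunit gene that could be read, had signals of 13.72 and 14.17 in WT and 13.83 and 13.98 in 35S:OsGSTU4, a difference of -0.04 (standard error 0.28). The 35S:OsGSTU4 arrays thus lay inside the WT range. PGRL1B, whose product takes part in cyclic electron flow, had -0.04 (0.26). CRP1, which in maize is needed for petA and petD expression, had 0.11 (0.33), CCB3 and CCDA, which act in haem attachment to the cytochromes of the complex, had 0.22 (0.35) and 0.14 (0.23), and CCS1, for the attachment of haem to cytochrome f, had 0.55 (0.31). The plastid gene ccsA, whose product works with CCS1, had 0.03 (0.33) at a signal of 12.77 to 13.39. PETC and the plastocyanin genes could not be read.

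The gene most like the mean profile of the 6 genes was AT4G22120, at a Euclidean distance of 0.12 over the 4 arrays after each profile had been centred on its own mean. Next came the plastid gene rpl20, for a ribosomal protein, at 0.15, with signals of 8.54 and 8.74 in WT and 10.25 and 10.68 in 35S:OsGSTU4. It is the gene that follows rps18 on the plastid map. AT5G61620, AT2G15340 and AT5G41170 followed at 0.21, 0.23 and 0.23, and the next plastid genes were psaA at 0.39 and matK at 0.51. With 4 arrays and 13350 genes, near matches of this kind are easily found, and the likeness is a description of these arrays only.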

How the data were processed

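The deposited file holds 1 log2 signal per probe set and array. Per the labels and the study's methods, RNA was extracted with TRI reagent, labelled with the GeneChip 3′-IVT express kit and hybridised to Affymetrix arrays. The submitters' processing notes name RMA without a version, but the deposited columns have unequal distributions and values at exactly 0, which RMA does not give, so the log2 values were used as deposited. After 64 control probe sets were left out, 22746 probe sets were fitted with limma 3.58.1 in R 4.3.3 (WT against 35S:OsGSTU4, no block, no filter), with P adjusted by Benjamini and Hochberg over all of them. Probe sets were tied to genes through the platform annotation, by Entrez ID for 13436 and by symbol for 72, while 5 could not be tied. The table of gene positions (TAIR10.1) was used for names and for which genes neighbour each other. A call was a fold of at least 2 with an unadjusted P of at most 0.05. The genes named are the members, every readable gene of the lists of partners and neighbours, and those nearest in profile. Members and lists were chosen with earlier results of these data known. The fit was checked on simulated data, with known changes placed only in probe sets above the median mean signal. The probe sets of petD, petG and petN lie below it, so the check does not cover their signal. The number of arrays limits the precision. Figures were drawn with matplotlib 3.10.9. No sequences of these genes or probes were used here.

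The alternatives were centring on array medians or on nuclear genes, quantile normalization, a filter at the median mean signal (7.35), an intensity trend, a replicate block, the methods' t-test, fits without 1 array, other thresholds, the mean over a gene's probe sets and a floor at 5.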

Additional observations from a re-analysis of the deposited data

How the results depend on the processing

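All 6 differences kept their sign under every alternative run, except petD, which was -0.011 without replicate 2 of 35S:OsGSTU4. Over the alternatives petL ran from 2.31 to 4.68, petN from 1.84 to 3.54, petG from 1.07 to 4.12, petA from 0.71 to 1.05, petB from 0.24 to 0.58 and petD from -0.01 to 0.55. The scaling alternatives changed no call of a cytochrome b6f gene. The count of these genes past the thresholds, 2 in the fit as deposited, was 1 with a replicate block, 1 among probe sets above the median mean, 1 with values under 5 set to 5, 0 with the methods' t-test, 0 at an adjusted p under 0.05, and 1 whichever array was left out. With a difference of 3.50, petL failed with the floor, the methods' t-test and an adjusted p, and also without WT replicate 1 (3.26) or WT replicate 2 (3.73). With a difference of 2.69, petN failed with the block, the methods' t-test and an adjusted p, and with 1.84, 2.29 and 3.09 when WT replicate 1 or either 35S:OsGSTU4 array was left out. The intensity trend took petG past the thresholds at 2.60, and a fold of at least 1.5 took petA, at 0.88. The median difference was 0.88 above the median mean, where petD, petG and petN drop out and have no value, 1.27 with the floor, and 1.06 to 1.61 without 1 array. Each gene has 1 probe set, so averaging over a gene's probe sets changed nothing. The same replicate numbers in both genotypes are not shown to pair the arrays (correlation of deviations 0.05), and the block gave 1301 probe sets past the thresholds beside 1074. That count was 583 with the trend (297 higher, 286 lower), 96 above the median mean, 479 with the methods' t-test, 209 with the floor (131 higher, 78 lower), 0 at an adjusted p, and 1286 to 1815 without 1 array, from 497 higher and 789 lower to 1161 and 654. Causes were not tested. The 95% intervals span over 4 log2 units at petG, petL and petN, and about 2 or less at petA, petB and petD.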
